A study of Mus musculus with 8 samples.

Results

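Polycomb repressive complex 2 (PRC2) was examined through 10 of its subunit genes, out of 27179 gene identifiers counted by RNA-seq in thymic natural killer T (NKT) cells of mice. The genes were listed by name as members of the complex: the alternative catalytic subunits Ezh2 and Ezh1, the other core subunits Eed, Suz12, Rbbp4 and Rbbp7, and the accessory subunits Jarid2, Aebp2, Mtf2 and Phf19. All 10 passed the filter on low counts. NKT cells are T cells that recognise lipids presented by CD1d. The cells came from C57BL/6 mice, either wild-type (WT) or labelled as Ezh2 knockout (Ezh2-KO), and were divided into 3 subsets by CD44 and NK1.1. Thymic NKT development is commonly drawn as passing from CD44- NK1.1- through CD44+ NK1.1- to CD44+ NK1.1+ cells. The CD44+ NK1.1- subset had 2 biological replicates of each genotype, and each of the other 4 groups was 1 library. No treatment is named. The labels used here name neither the age of the mice, nor the deleted part of Ezh2, a Cre driver or any pooling of animals.

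PRC2 places methyl groups on lysine 27 of histone H3, a mark of silenced genes. EZH2 or EZH1 carries the catalytic site, EED binds the finished mark and SUZ12 holds the complex together, while the histone-binding proteins RBBP4 and RBBP7 also serve in other chromatin complexes. The accessory subunits form separate versions of the complex, with MTF2, PHF19 or PHF1 in one and JARID2 with AEBP2 in the other, and help to bring it to its target genes. EZH2 is typical of dividing cells, and EZH1 persists in cells that rest.

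The libraries held 20308745 to 22995090 counts. All 9 NKT and T cell markers were detected in every library, with a summed level of 3399 to 7797 CPM (counts scaled to library size after TMM). Klrb1c, which encodes NK1.1, measured 1146 CPM in WT and 1447 CPM in Ezh2-KO CD44+ NK1.1+ cells and 15.4 to 217 CPM elsewhere, highest of these in WT CD44+ NK1.1- replicate 1. Summed levels of markers of other cells ranged from 8.55 to 63.8 CPM for cortical thymocytes, 0.899 to 4.78 for B cells, 3.65 to 8.45 for myeloid cells, 2.15 to 5.79 for thymic epithelium and 0.450 to 51.1 for erythroid cells. The highest cortical thymocyte sum was also that of WT CD44+ NK1.1- replicate 1, beside 8.55 to 46.0 CPM in the other libraries. Pax5 was at 0 in 7 of the 8 libraries, Krt5 in 7 and Foxn1 in 6. The 5 markers of NK and innate lymphoid cells, which NKT cells can also express, summed to 148 CPM in WT and 486 CPM in Ezh2-KO CD44+ NK1.1+ cells and to 0.899 to 60.6 CPM elsewhere. The NK and erythroid markers ran higher in most Ezh2-KO libraries than in WT, without a test of their sums. The NK and innate lymphoid sum was 17.5 and 3.10 CPM in the WT and 60.6 and 59.4 CPM in the Ezh2-KO replicates of CD44+ NK1.1- cells, and the erythroid sum was 17.3, 51.1 and 18.1 CPM in 3 of the 4 Ezh2-KO libraries, 0.450 CPM in the fourth and 0.899 to 1.29 CPM in WT. The part of any of these cells in the results below was not tested.

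All 10 subunit genes were well above the detection limit in every library. A level of 3 counts corresponded to 0.130 to 0.148 CPM, and the lowest value of any subunit gene was 23.4 CPM. Divided by gene length, so that genes can be ranked, the median level over the 8 libraries was 118 CPM per kilobase for Rbbp7 and 101 for Rbbp4. Suz12 followed at 56.7, Eed at 33.9, Ezh2 at 30.3 and Aebp2 at 29.2 CPM per kilobase. The lowest medians belonged to Jarid2 at 19.7, Ezh1 at 17.1, Mtf2 at 13.8 and Phf19 at 10.5 CPM per kilobase. The ranges over libraries overlapped between Rbbp7 (94.8 to 131) and Rbbp4 (88.7 to 113), and also among Eed (31.0 to 41.3), Ezh2 (15.1 to 50.9) and Aebp2 (28.0 to 32.2). The histone-binding subunits and Suz12 were thus the most abundant transcripts per length. Ezh2 spanned a 3.36-fold range between its lowest and highest library, Phf19 2.11-fold and Ezh1 1.75-fold, while the other 7 genes spanned 1.15-fold (Aebp2) to 1.38-fold (Rbbp7).

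**Figure D1:**
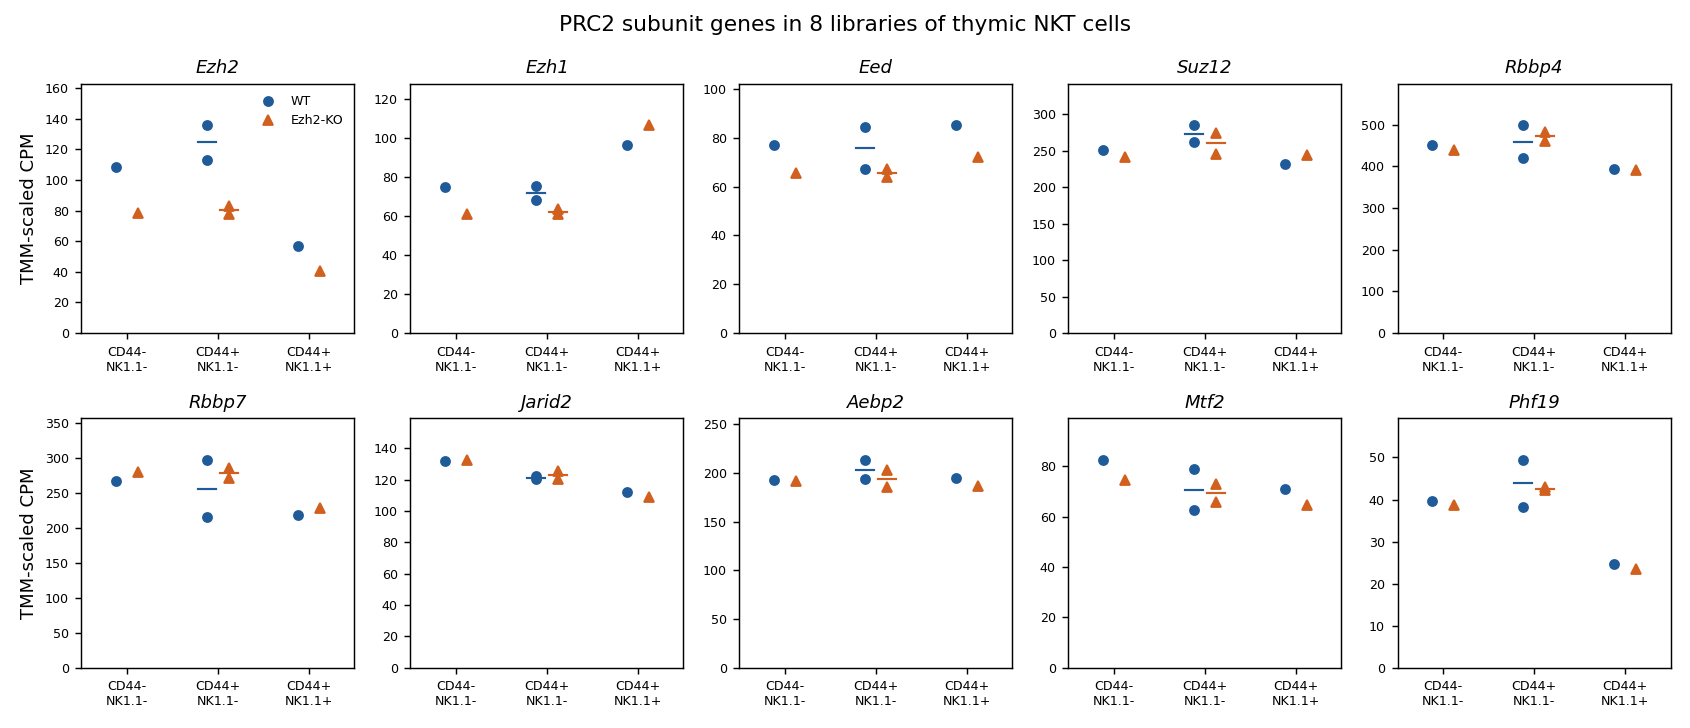
TMM-scaled CPM of the 10 PRC2 subunit genes (vertical axis, from 0) in the 3 NKT subsets, with 1 point per library, circles for WT and triangles for Ezh2-KO; short lines mark the mean of 2 replicates. Ezh2 and Phf19 are lowest and Ezh1 is highest in the CD44+ NK1.1+ libraries, and the other genes vary by less than 1.5-fold.

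The targeted gene was compared first. Ezh2 (gene identifier 14056, chromosome 6, 47530274 to 47595270, build mm10) measured 113 and 136 CPM in the WT replicates of CD44+ NK1.1- cells and 83.3 and 77.9 CPM in those of Ezh2-KO. The CD44- NK1.1- libraries had 109 CPM (WT) and 78.4 CPM (Ezh2-KO), and the CD44+ NK1.1+ libraries 57.2 and 40.4 CPM. Every Ezh2-KO library lay below the WT libraries of its subset, and the genotypes did not overlap among the replicates. Ezh2-KO cells thus kept 64.7% of the WT level in CD44+ NK1.1- cells, 72.2% in CD44- NK1.1- cells and 70.6% in CD44+ NK1.1+ cells. The counts cover the whole gene, and whether the remaining reads come from transcripts lacking the deleted part or from cells with an intact gene cannot be told apart.

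In CD44+ NK1.1- cells the mean Ezh2 level fell from 125 ± 15.9 to 80.6 ± 3.81 CPM (SD, n = 2 each), a log2 fold change of -0.63 (95% interval -0.92 to -0.34, edgeR quasi-likelihood test, adjusted p = 0.0407). It was the only subunit gene of 10 to pass the test there, where 4.94% of all 13794 tested genes passed, 3.78% higher and 1.16% lower in Ezh2-KO. The gene no longer passed with scaling by library size alone (adjusted p = 0.0524) or with limma-voom (0.0547). It also failed when Ezh2-KO replicate 1 (log2 difference -0.68) or replicate 2 (-0.58) was left out. Those fits took the spread from the WT pair alone, and far fewer of all tested genes passed. Over the 3 subsets together Ezh2 fell by 0.56 on the log2 scale (SE 0.07, 95% interval -0.73 to -0.39, edgeR adjusted p = 0.00402), again as the only subunit gene called, against 11.3% of all tested genes, 6.43% higher and 4.89% lower. The difference of the genotype effect from that in CD44+ NK1.1- cells was 0.13 (95% interval -0.38 to 0.63) in CD44+ NK1.1+ cells and 0.16 (95% interval -0.34 to 0.66) in CD44- NK1.1- cells. No subunit gene passed the test of such a difference, which 0% and 0.0217% of all tested genes passed in edgeR. At an unadjusted p under 0.05 there were 519 and 648 of the 13794 genes, fewer than that threshold passes on average where no gene differs. DESeq2 called 28 genes in each.

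Ezh1, which can stand in for Ezh2 as the catalytic subunit, was not higher in Ezh2-KO CD44+ NK1.1- cells. Its WT replicates there had 75.4 and 68.3 CPM and its Ezh2-KO replicates 63.6 and 61.2 CPM. The Ezh2-KO values lay below both WT values, but the difference of -0.20 on the log2 scale did not pass the test (95% interval -0.45 to 0.04, edgeR adjusted p = 0.319), and the interval leaves room for a rise of at most 0.04. In CD44- NK1.1- cells Ezh1 (chromosome 11, 101191115 to 101226463) measured 74.9 CPM in WT and 61.1 CPM in Ezh2-KO, and in CD44+ NK1.1+ cells 96.6 and 106.7 CPM. Over the 3 subsets the difference was -0.14 (95% interval -0.33 to 0.05, edgeR adjusted p = 0.328). The Ezh2-KO library was thus the higher of the pair in CD44+ NK1.1+ cells alone, at 111% of WT against 86.8% and 81.6% in the other subsets. That contrast between CD44+ NK1.1+ and CD44+ NK1.1- cells was 0.35 (95% interval -0.07 to 0.77, unadjusted p = 0.0888 in the edgeR quasi-likelihood test across all genes), a value that did not pass after adjustment. The contrast was 0.42 without WT CD44+ NK1.1- replicate 2, and CD44+ NK1.1+ cells had 1 library per genotype. Without the same replicate the difference within CD44+ NK1.1- cells was -0.27. With that replicate left out, the spread came from the Ezh2-KO pair alone and far more of all tested genes passed, so calls from these fits are not read for Ezh1.

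Expressed as a share of the per-kilobase level of both catalytic subunit genes, Ezh1 made up 29.7% and 24.2% in the WT replicates of CD44+ NK1.1- cells and 32.7% and 33.3% in the Ezh2-KO replicates. The share was 30.5% in WT and 33.1% in Ezh2-KO CD44- NK1.1- cells, and 51.8% and 62.7% in CD44+ NK1.1+ cells. In every subset the Ezh2-KO libraries lay above the WT libraries. The mean over subsets was 42.9% in Ezh2-KO and 36.4% in WT, a difference of 6.52 percentage points (exact permutation test of genotype within subset, two-sided p = 0.0833, the smallest that the 24 arrangements allow). The sum of both genes was 55.6 CPM per kilobase in WT and 43.2 in Ezh2-KO, a difference of -12.4 with the same smallest p of the exact test (p = 0.0833). The higher share therefore went with a lower Ezh2 level, and without a called rise of Ezh1. Ezh2, the targeted gene, enters both the share and the sum, so neither exact test can show a change of Ezh1 itself. Both measures count every Ezh2 read left in Ezh2-KO cells, also any from transcripts lacking the deleted part. The share of Ezh1 among intact transcripts in Ezh2-KO cells therefore cannot be given.

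**Figure D2:**
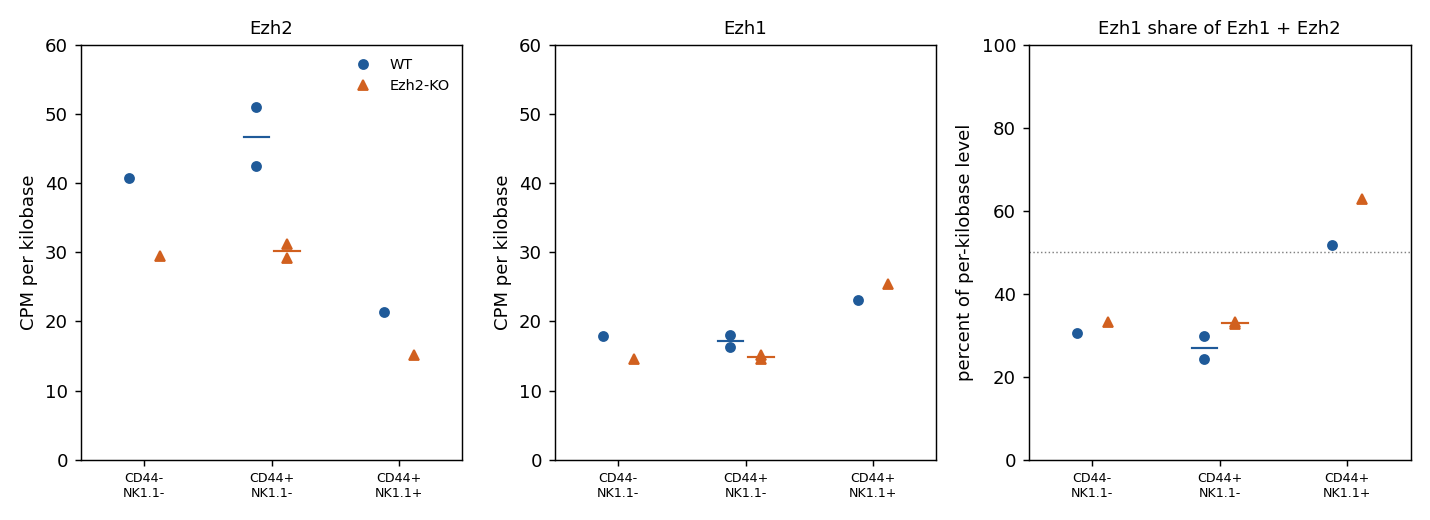
Levels of Ezh2 and Ezh1 in CPM per kilobase of gene length (left and middle, axes from 0) and the share of Ezh1 in their sum in percent (right, dotted line at equal levels), by NKT subset, with 1 point per library, circles for WT, triangles for Ezh2-KO and short lines for the mean of 2 replicates. Ezh1 exceeds Ezh2 in both CD44+ NK1.1+ libraries, with shares of 51.8% in WT and 62.7% in Ezh2-KO, and stays at or below 33.3% in the others. Ezh2 reads in Ezh2-KO are counted whether or not their transcripts are intact.

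The remaining core subunits differed little between genotypes. Eed, the subunit that reads the methyl mark (chromosome 7, 89954654 to 89980976), measured 67.2 and 84.2 CPM in WT and 67.1 and 63.9 CPM in Ezh2-KO CD44+ NK1.1- cells. Its levels were 77.0 (WT) and 65.7 CPM (Ezh2-KO) at the CD44- NK1.1- stage, and 85.1 and 72.3 CPM at the CD44+ NK1.1+ stage. Each Ezh2-KO library lay below the WT libraries of its subset, although WT replicate 1 and Ezh2-KO replicate 1 nearly coincided. The group values in Ezh2-KO were 85.4%, 86.5% and 84.9% of WT in the order of development. Over the 3 subsets the difference was -0.22 (95% interval -0.40 to -0.04, unadjusted p = 0.0210), which did not pass after adjustment over all genes (edgeR adjusted p = 0.110). Leaving out 1 library gave -0.29 to -0.15. The largest difference came without WT CD44+ NK1.1- replicate 1, the lower of the WT replicates. That fit called more of all tested genes than the main test, so its call is not read for Eed.

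Suz12, the scaffold of the complex, measured 261 and 285 CPM in WT and 274 and 245 CPM in Ezh2-KO CD44+ NK1.1- cells, with overlap between the genotypes. Its difference over the 3 subsets was -0.03 (edgeR adjusted p = 0.797). Rbbp4 had means of 459 ± 56.1 CPM in WT and 472 ± 15.9 CPM in Ezh2-KO CD44+ NK1.1- cells (SD, n = 2), and Rbbp7 of 256 ± 57.8 and 279 ± 10.9 CPM. Their differences over the 3 subsets were 0.01 (edgeR adjusted p = 0.956) and 0.09 (edgeR adjusted p = 0.584). Both genes overlapped between genotypes in the replicates. They are close relatives, and reads shared by near-identical stretches could be split between them.

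None of the accessory subunits passed the genotype test. Jarid2, which links the complex to chromatin and can itself carry a methyl mark, had 121 ± 1.61 CPM in WT and 123 ± 3.80 CPM in Ezh2-KO CD44+ NK1.1- cells (SD, n = 2), with the closest WT replicates of the 10 genes. Aebp2, a zinc finger partner of Jarid2, had 203 ± 14.2 and 194 ± 12.6 CPM. Mtf2, a subunit that binds DNA rich in unmethylated CpG, had 70.7 ± 11.4 and 69.4 ± 5.05 CPM, and its relative Phf19 had 43.9 ± 7.85 and 42.6 ± 0.405 CPM. The differences over the 3 subsets lay between -0.09 (Mtf2) and 0.00 (Jarid2), with edgeR adjusted p from 0.563 to 0.978. All 4 genes overlapped between genotypes in the replicates.

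Across the 10 genes the median log2 difference was -0.06 in CD44+ NK1.1- cells and -0.05 over the 3 subsets, beside -0.01 for all tested genes in both comparisons. The replicates of the genotypes did not overlap for 3 of the 10 genes, Ezh2, Ezh1 and Eed, which is below the 52.2% of all tested genes without overlap. The ratio between replicates was wider in WT than in Ezh2-KO for 8 of the 10 genes, and 8 of 10 were higher in WT replicate 2. Proliferation genes, 26 listed, reached summed levels of 4692 (replicate 1) and 6773 CPM (replicate 2) in WT and of 5613 and 5601 CPM in Ezh2-KO. The genotype differences in CD44+ NK1.1- cells moved with these replicates. Without WT replicate 1 they were -0.36 for Eed and -0.21 for Phf19, and without WT replicate 2 they were -0.27 for Ezh1 and 0.37 for Rbbp7. Such fits took the spread from the Ezh2-KO pair alone, and far more of all tested genes passed, so their calls are not read for single genes. The part of proliferation in these values was not tested.

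**Figure D3:**
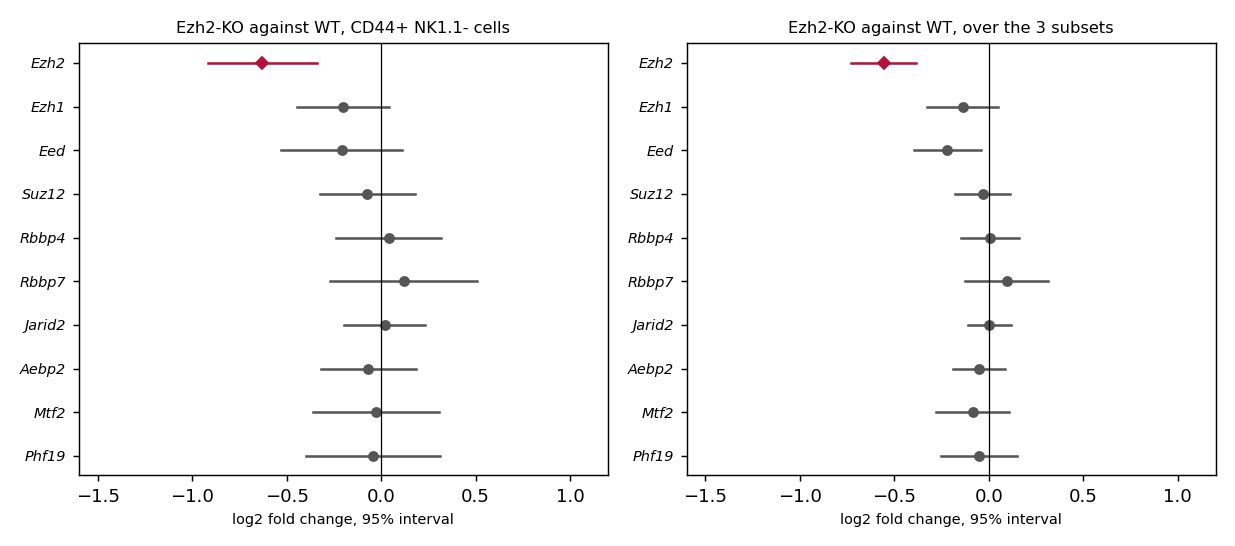
Log2 fold change of Ezh2-KO against WT for the 10 PRC2 subunit genes with 95% intervals from the edgeR fit (horizontal axis), in CD44+ NK1.1- cells (left) and over the 3 subsets (right); diamonds mark genes with an adjusted p under 0.05. Ezh2 is the only diamond in each panel, at -0.63 and -0.56, and the other 9 points lie between -0.22 and 0.12.

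Genes that work beside these subunits were listed separately. Of 5 further PRC2-associated genes, 4 were abundant enough to test and 1 rose in Ezh2-KO cells. Of all tested genes 3.78% were called higher in CD44+ NK1.1- cells and 6.43% over the 3 subsets. The gene that rose was Epop, a cofactor of the MTF2, PHF19 or PHF1 version of the complex. It measured 38.5 and 42.1 CPM in WT and 74.6 and 63.9 CPM in Ezh2-KO CD44+ NK1.1- cells. Its levels were 53.6 (WT) and 67.8 CPM (Ezh2-KO) at the CD44- NK1.1- stage, and 42.0 and 60.1 CPM at the CD44+ NK1.1+ stage. All 4 Ezh2-KO libraries lay above all 4 WT libraries, a separation whose share among all tested genes was not counted. The change was 0.78 (SE 0.12, edgeR adjusted p = 0.0227) in CD44+ NK1.1- cells and 0.60 (SE 0.10, edgeR adjusted p = 0.00807) over the subsets. With only 1 of the Ezh2-KO replicates the former missed the threshold (0.66 without replicate 1 and 0.89 without replicate 2). Those fits took the spread from the WT pair alone, and far fewer of all tested genes passed. Ezhip, an inhibitor of PRC2 in germ cells, had 0 counts in all 8 libraries, which allows up to 0.148 CPM, an upper limit for counting error only. Lcor and Lcorl, whose loci encode further PRC2 partners, stayed at or below 8.84 and 12.8 CPM and were not called.

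Of the 2 genes for enzymes that remove the PRC2 mark, Kdm6a fell in Ezh2-KO cells over the 3 subsets. It measured 91.7 and 88.1 CPM in WT and 74.9 and 72.2 CPM in Ezh2-KO CD44+ NK1.1- cells. All 4 Ezh2-KO libraries lay at 72.2 to 86.0 CPM, below the WT range of 88.1 to 96.5 CPM. The share of all tested genes with such a separation was not counted. The change was -0.26 (SE 0.06, edgeR adjusted p = 0.0295), a call that ended without any 1 of 5 libraries (adjusted p = 0.0653 to 0.132) and as the mean of the 3 genotype effects (adjusted p = 0.0891). Kdm6b differed by -0.71 without passing (edgeR adjusted p = 0.102), but passed with DESeq2 (adjusted p = 0.00198). Without WT CD44+ NK1.1- replicate 1 its difference was -0.43, in a fit that called more of all tested genes than the main test. Genes of PRC1, the complex that binds the PRC2 mark, moved in both directions in Ezh2-KO over the 3 subsets. Bmi1 rose by 0.82 (edgeR adjusted p = 0.00351), while Cbx8 fell by 0.54 (adjusted p = 0.0286) and Phc3 by 0.37 (adjusted p = 0.0219). The Cbx8 call ended without any 1 library other than WT CD44+ NK1.1- replicate 1 (adjusted p = 0.0529 to 0.0924). That of Phc3 ended without any 1 library outside WT CD44+ NK1.1- replicates 1 and 2 and Ezh2-KO CD44+ NK1.1- replicate 1 (0.0636 to 0.1000) and as the mean of the 3 genotype effects (0.0771). In CD44+ NK1.1- cells alone Bmi1 was called as well (1.05, edgeR adjusted p = 0.00396). Leaving out either Ezh2-KO replicate ended the Bmi1 call (differences of 1.02 and 1.07). The spread then came from the WT pair alone, and far fewer of all tested genes passed. Of the 26 proliferation genes, E2f2 alone passed the genotype test over the subsets, which 11.3% of all tested genes passed. Its change was -0.38 (edgeR adjusted p = 0.0264). That call ended without any 1 library other than WT CD44+ NK1.1- replicate 1 (adjusted p = 0.0554 to 0.103) and as the mean of the 3 genotype effects (0.0931), and the count of proliferation genes called lower ranged from 0 to 12 over the alternatives. In the edgeR test 0 passed in CD44+ NK1.1- cells, where 4.94% of all tested genes passed and 2853 had an unadjusted p under 0.05.

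The subsets were compared next, as the mean over both genotypes. Between CD44- NK1.1- and CD44+ NK1.1- cells 0 of the 10 subunit genes passed the edgeR test, where 2.66% of all tested genes passed (1.59% higher and 1.07% lower) and 2124 had an unadjusted p under 0.05. The differences ran from -0.16 for Mtf2 to 0.14 for Phf19, and Ezh2 differed by 0.12 (edgeR adjusted p = 0.674). Ezh2, at 109 CPM in WT CD44- NK1.1- cells, lay just below the WT CD44+ NK1.1- replicates at 113 and 136 CPM, and the Ezh2-KO libraries at 77.9 to 83.3 CPM overlapped between these subsets. Without WT CD44+ NK1.1- replicate 1 the differences were 0.18 for Ezh2 and 0.23 for Phf19. Without WT CD44+ NK1.1- replicate 2 they were -0.16 for Rbbp7 and -0.25 for Mtf2. Both fits took the spread from the Ezh2-KO pair alone, and far more of all tested genes passed, so their calls are not read for single genes.

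CD44+ NK1.1+ cells differed from both other subsets in the catalytic subunits. Ezh2 measured 57.2 CPM in WT and 40.4 CPM in Ezh2-KO CD44+ NK1.1+ cells, below the 77.9 to 136 CPM of the 6 other libraries. It fell by 1.06 on the log2 scale from CD44+ NK1.1- cells (SE 0.11, 95% interval -1.32 to -0.80, edgeR adjusted p = 0.00179). Against CD44- NK1.1- cells its change was -0.94 (SE 0.12, edgeR adjusted p = 0.00296). WT CD44+ NK1.1+ cells, with an intact gene, had a lower Ezh2 level than any Ezh2-KO library of the other subsets.

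Ezh1 took the opposite course. It measured 96.6 and 106.7 CPM in the WT and Ezh2-KO CD44+ NK1.1+ libraries and 61.1 to 75.4 CPM in the other 6, without overlap. It rose by 0.60 from CD44+ NK1.1- cells (SE 0.08, 95% interval 0.39 to 0.81, edgeR adjusted p = 0.00467) and by 0.59 from CD44- NK1.1- cells (SE 0.10, adjusted p = 0.00807). In the WT libraries alone the rise was 0.43 (adjusted p = 0.0771) and 0.37 (adjusted p = 0.137), and neither passed. The Ezh2-KO libraries alone passed in both comparisons, which does not show that the genotypes differ. The second call also ended without Ezh2-KO CD44+ NK1.1- replicate 1 (adjusted p = 0.0505), Ezh2-KO CD44+ NK1.1+ (0.138) or Ezh2-KO CD44- NK1.1- (0.137), and the first without Ezh2-KO CD44+ NK1.1+ (0.43, adjusted p = 0.0778).

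Of the accessory subunits Phf19, a Polycomb-like protein that recruits PRC2 to marked chromatin (gene identifier 74016, chromosome 2, 34893752 to 34914353), moved with Ezh2. It measured 24.7 CPM in WT and 23.4 CPM in Ezh2-KO CD44+ NK1.1+ cells, and 38.3 to 49.4 CPM in the other 6 libraries. The CD44+ NK1.1+ libraries thus stood below all others, and the genotypes lay close together. Phf19 fell by 0.84 from CD44+ NK1.1- cells (SE 0.13, 95% interval -1.17 to -0.52, edgeR adjusted p = 0.00647) and by 0.70 from CD44- NK1.1- cells (SE 0.15, adjusted p = 0.0163). The second call ended in single genotypes (adjusted p = 0.0812 in WT and 0.0685 in Ezh2-KO) and without any 1 library other than the WT CD44+ NK1.1- replicates (adjusted p = 0.0601 to 0.0824).

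The other 7 subunit genes were not called by the main test in either comparison with CD44+ NK1.1+ cells. Against CD44+ NK1.1- cells they differed by -0.26 (Rbbp7) to 0.16 (Eed), with edgeR adjusted p from 0.103 (Rbbp4) to 0.767 (Mtf2). Against CD44- NK1.1- cells Jarid2 came nearest to the threshold (-0.26, edgeR adjusted p = 0.0685). In these comparisons 3 of the 10 subunit genes were called, 1 higher and 2 lower, beside 32.5% of all tested genes against CD44+ NK1.1- cells and 32.2% against CD44- NK1.1- cells, so that the share is close to the background. Both comparisons use the same CD44+ NK1.1+ libraries. Rbbp4 (391 and 394 CPM against 420 to 499) and Jarid2 (109 and 112 against 120.2 to 133) also stood below the 6 other libraries without overlap, a separation found in 42.8% of all tested genes, 21.7% higher and 21.1% lower. With scaling by library size alone, the median of all genes moved to -0.13 and -0.16. Rbbp4 (-0.38, adjusted p = 0.0324), Jarid2 and Suz12 were then called lower against CD44+ NK1.1- cells, and Jarid2 (-0.40, adjusted p = 0.0164) against CD44- NK1.1- cells. An additive model of genotype and subset, with TMM kept, also called Rbbp4 lower against CD44+ NK1.1- cells (-0.25, edgeR adjusted p = 0.0458). It called Jarid2 lower against CD44- NK1.1- cells (-0.26, edgeR adjusted p = 0.0218). In that model 5257 and 5245 of all tested genes passed.

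**Figure D4:**
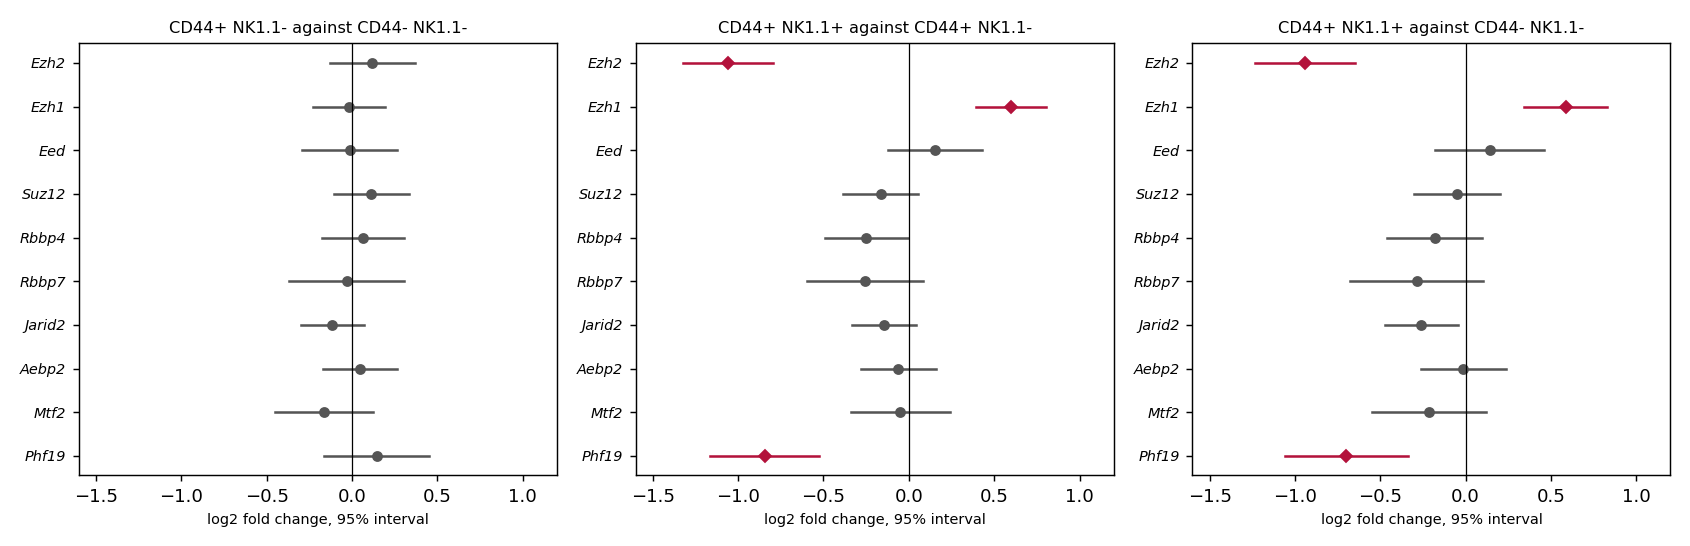
Log2 fold change between NKT subsets for the 10 PRC2 subunit genes, as the mean over both genotypes, with 95% intervals from the edgeR fit (horizontal axis); diamonds mark genes with an adjusted p under 0.05. No gene is called between CD44+ NK1.1- and CD44- NK1.1- cells, and Ezh2, Phf19 (lower) and Ezh1 (higher) are called in both comparisons of CD44+ NK1.1+ cells.

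The subunit Phf1, a relative of Mtf2 and Phf19, ran against Phf19. It measured 66.2 CPM in WT and 69.4 CPM in Ezh2-KO CD44+ NK1.1+ cells, 35.3 CPM in WT CD44+ NK1.1- replicate 1 and 10.4 to 13.4 CPM in the remaining 5 libraries. The differences of 1.99 from CD44+ NK1.1- cells and 2.52 from CD44- NK1.1- cells did not pass the edgeR test (adjusted p = 0.0602 and 0.0612). They passed with DESeq2 (adjusted p = 0.00877 and 0.00368), with limma-voom (0.0145 and 0.0168) and without robust estimation (0.0157 and 0.0158). The WT replicate with the high Phf1 level was also the one with 217 CPM of Klrb1c, above the 68.5 CPM of WT replicate 2 and the 41.7 CPM of Ezh2-KO replicate 2, and the part of cell makeup in the Phf1 level was not tested.

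Proliferation genes moved in the direction of Ezh2 and Phf19. Of 26 listed genes, 25 were called lower in CD44+ NK1.1+ than in CD44+ NK1.1- cells, with a median of -1.05, where 16.1% of all tested genes were called lower. Their summed level was 3374 CPM in WT and 2906 CPM in Ezh2-KO CD44+ NK1.1+ cells and 4692 to 6773 CPM elsewhere. Ccnb2, a mitotic cyclin, fell by 1.23 (edgeR adjusted p = 0.00109), and the nucleotide synthesis genes Tk1 and Tyms fell by 1.16 (adjusted p = 0.00182) and 1.35 (adjusted p = 0.00223). Ube2c, a ubiquitin-conjugating enzyme of mitotic exit, fell by 1.34 (edgeR adjusted p = 0.00248), the topoisomerase gene Top2a by 1.28 (adjusted p = 0.00681) and Mki67 by 0.81 (adjusted p = 0.0135). The Mki67 call ended in single genotypes (adjusted p = 0.0787 in WT and 0.0526 in Ezh2-KO) and without WT CD44+ NK1.1+ (0.0512), Ezh2-KO CD44+ NK1.1- replicate 2 (0.0514) or Ezh2-KO CD44+ NK1.1+ (0.0778). The count was 10 without Ezh2-KO CD44+ NK1.1+ or in the WT libraries alone and 16 without Ezh2-KO CD44+ NK1.1- replicate 2. Against CD44- NK1.1- cells 15 of the 26 were called lower, beside 16.2% of all tested genes, with counts between 1 and 26 as single libraries were left out. In bulk samples fewer dividing cells and less of these transcripts per cell cannot be told apart, for Ezh2 and Phf19 as for the proliferation genes, and the part of proliferation in the level of Ezh2 was not tested.

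**Figure D5:**
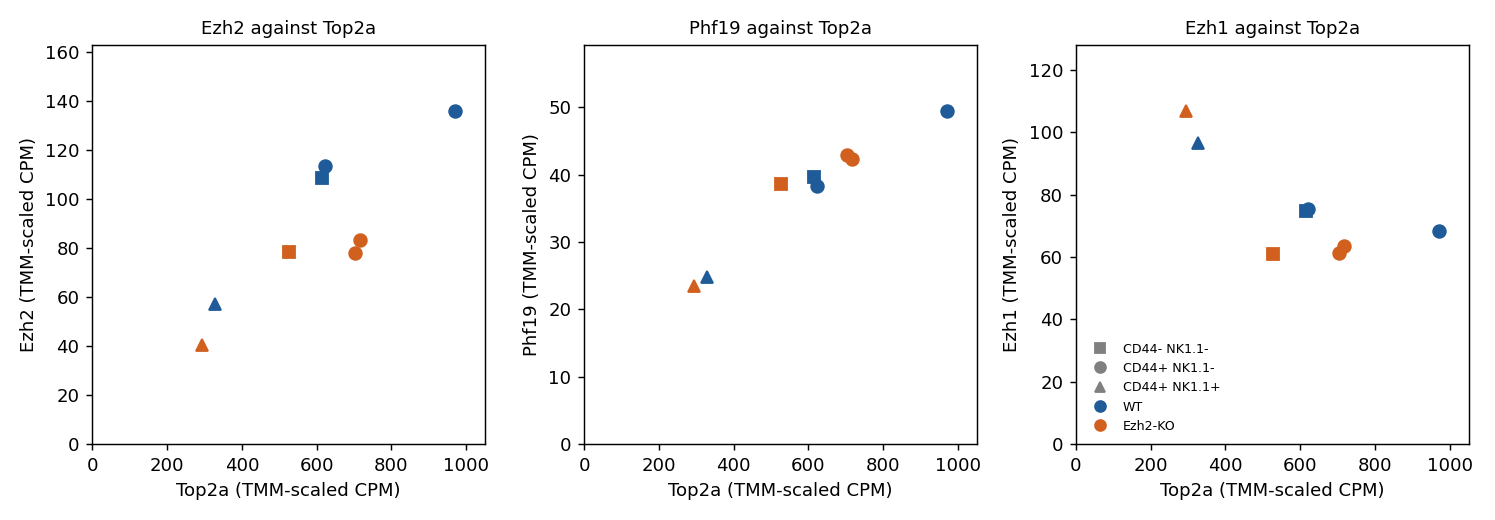
Levels of Ezh2, Phf19 and Ezh1 (vertical axes) against Top2a (horizontal axis), all in TMM-scaled CPM, with 1 point per library; colour gives the genotype and symbol shape the subset. The CD44+ NK1.1+ libraries have the lowest Top2a levels, 328 CPM in WT and 293 CPM in Ezh2-KO, with the lowest Ezh2 and Phf19 and the highest Ezh1.

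Among the other libraries Top2a ran from 526 CPM in Ezh2-KO CD44- NK1.1- cells to 969 CPM in WT CD44+ NK1.1- replicate 2. The Ezh2-KO CD44+ NK1.1- replicates, at 717 and 704 CPM, lay between the WT replicates at 622 and 969 CPM.

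Of 20 PRC1 genes, 4 were called higher and 1 lower than in CD44+ NK1.1- cells, and 5 higher and 3 lower than in CD44- NK1.1- cells. Over the alternatives run these counts ranged from 2 to 8 higher and 0 to 7 lower, and from 1 to 7 in each direction. Their shares are near those of all tested genes, 32.5% and 32.2%, so the counts are no result about PRC1. Cbx7, a reader of the PRC2 mark, measured 56.9 and 53.2 CPM in the WT and Ezh2-KO CD44+ NK1.1+ libraries and 23.9 to 29.9 CPM elsewhere, a rise of 1.04 from CD44+ NK1.1- cells (edgeR adjusted p = 0.00236). Pcgf2 rose by 0.85 (edgeR adjusted p = 0.00433) and Phc3 by 0.62 (adjusted p = 0.00942), while Bmi1 fell by 0.57 (adjusted p = 0.00498). The Phc3 call ended without Ezh2-KO CD44+ NK1.1- replicate 2 (0.57, adjusted p = 0.0625). The Bmi1 call ended in the WT libraries alone (-0.39, adjusted p = 0.0883), and without Ezh2-KO CD44+ NK1.1- replicate 1 (-0.56, adjusted p = 0.0518) or Ezh2-KO CD44+ NK1.1+ (-0.39, adjusted p = 0.0883). Of the PRC2-associated genes and the demethylases 0 passed the edgeR test between subsets.

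Promoter sequence was examined because Ezh2 and Phf19 moved together and Ezh1 moved against them. The windows come from RefSeq starts on GRCm38.p6, the patch level of build mm10 used there, and reach from 250 bases before to 50 after each start, with 14 windows for the 10 genes. They were searched on both strands for 4 forms of the E2F site, which is found at many cell cycle genes: TTTCCCGC, TTTGGCGC, TTTCGCGC and TTTGCCGC. Each gene with a match held 1, so no matches overlapped. A match was present for Ezh2, Suz12 and Phf19, 3 of the 10 genes, against 2.60% of 27025 genes and 2.26% of 32851 windows. These shares cover all genes with a window, expressed or not and of any base content, while all 10 subunit genes were expressed. The sets are thus unlike, and no enrichment is read from the shares. The 3 stretches of 30 bases are given 5′ to 3′ on the strand of the gene, with the match in capitals.
Ezh2, chr6:47595009-47595038, minus strand: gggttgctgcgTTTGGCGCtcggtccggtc
Suz12, chr11:79992876-79992905, plus strand: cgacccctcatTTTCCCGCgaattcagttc
Phf19, chr2:34914166-34914195, minus strand: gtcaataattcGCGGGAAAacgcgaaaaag
Positions are counted from the start used for each window, as base 1. The Ezh2 match begins at base 4, and those of Suz12 and Phf19 begin 219 and 208 bases before that start. The starts used for Ezh2 and Phf19 lie inside their gene spans, so the Phf19 match is within the annotated gene span and not upstream of it. The Phf19 match is the reverse complement of the first form. Of these 3 genes Ezh2 and Phf19 were called lower in CD44+ NK1.1+ cells and Suz12 was not (-0.17, edgeR adjusted p = 0.208). A match is a description of letters and shows no binding.

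Sequence from the 250 bases before the start used for each window is shown for the 3 genes that differed between subsets. Only the longest run of bases outside annotated exons is given. It has 125 bases for Ezh2, 189 for Phf19 and 250 for Ezh1, so the stretches are not matched in length. Those of Ezh2 and Phf19 do not reach the start used. For Ezh2 and Phf19 that start lies inside the gene span, whose 5′ end is at 47595270 and 34914353. Both stretches are thus sequence within the annotated gene. The Ezh1 stretch lies outside its span, whose 5′ end is at 101226463.
Ezh2, chr6:47595059-47595183, minus strand: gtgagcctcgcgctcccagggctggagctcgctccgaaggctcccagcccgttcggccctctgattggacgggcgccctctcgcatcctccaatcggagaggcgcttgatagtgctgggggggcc
Phf19, chr2:34914027-34914215, minus strand: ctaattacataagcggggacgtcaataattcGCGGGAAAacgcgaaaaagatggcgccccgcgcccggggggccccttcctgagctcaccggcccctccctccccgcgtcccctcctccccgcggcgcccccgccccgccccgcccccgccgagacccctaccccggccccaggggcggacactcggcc
Ezh1, chr11:101226464-101226713, minus strand: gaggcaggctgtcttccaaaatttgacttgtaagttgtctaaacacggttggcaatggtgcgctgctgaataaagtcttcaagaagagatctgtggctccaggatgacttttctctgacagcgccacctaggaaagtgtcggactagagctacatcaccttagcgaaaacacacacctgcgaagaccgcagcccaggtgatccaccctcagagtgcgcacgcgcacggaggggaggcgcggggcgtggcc
The Phf19 stretch holds its match in capitals. In the Ezh1 window none of the 4 forms was found, which says only that these letters are absent from it.

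The genes whose levels followed those of the catalytic subunits most closely over the 8 libraries were ranked among 7855 tested genes by Pearson's r of log2 CPM. For Ezh2 these were the proteasome activator gene Psme2 (r = 0.989), the predicted gene Gm6314 (0.976), the splicing regulators Tra2a (0.975) and Tra2b (0.974), and Snrpb2 (0.968), a component of the spliceosome. For Ezh1 they were Synrg (r = 0.995), Tmem154 (0.994), the retinoblastoma family member Rbl2 (0.992), Pip4k2c (0.990) and Arap3 (0.989). These values are descriptions, since the libraries share subsets and genotypes and the CD44+ NK1.1+ libraries stand apart in both genes. Tmem154 ranged from 138 to 281 CPM and Psme2 from 17.7 to 25.4 CPM, so that a high r can go with a small range.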

How the data were processed

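Read counts per gene were deposited by the authors for 8 libraries of thymic NKT cells, each sequenced on 4 lanes per the labels. Per the submitters' processing notes the tools were CASAVA, Subread 1.4.3-p1 and featureCounts, with build mm10. Neither annotation nor strandedness of the counting is stated in the sources used here, so reads from overlapping antisense genes cannot be told apart. The 8 single-library files held the same counts as the series table, whose gene lengths were used for CPM per kilobase.

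The 10 genes, the lists and the naming rule were chosen with earlier results of these data known. Every subunit gene is named, as are genes of the other lists called by genotype, up to 4 with the smallest p in a subset comparison, Mki67 and Top2a, and the 5 genes most like Ezh2 or Ezh1 (mean log2 CPM of at least 4, prior count 2). A gene that this rule would name is not reported here. Gene symbols and promoters are from RefSeq, and exons from GENCODE M21.

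Counts were tested in R 4.3.3 with edgeR 4.0.16: filterByExpr (13794 genes left), TMM, glmQLFit with robust estimation and the quasi-likelihood F test, with Benjamini-Hochberg adjustment over all tested genes and a threshold of 0.05. A model with 6 groups left 2 residual degrees of freedom, and single libraries were taken to vary like the replicated groups. The comparison over the 3 subsets used an additive model with 4. Where no tool is named, adjusted p comes from edgeR. Alternatives used DESeq2 1.42.0, limma 3.58.1, other scalings and filters, single genotypes and each library left out in turn. The test was checked on simulated counts. Libraries were treated as independent, since the sources do not say whether subsets came from the same animals. Depth of 20308745 to 22995090 counts sets the lower limit given, for counting error only.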

Additional observations from a re-analysis of the deposited data

How the results depend on the processing

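Calls rested on few residual degrees of freedom, since 4 of the 6 groups were single libraries. With 1 WT CD44+ NK1.1- replicate left out of the model with 6 groups, the residual spread came from the Ezh2-KO pair alone, and every count of called genes from that model rose. With 1 Ezh2-KO CD44+ NK1.1- replicate left out, it came from the WT pair alone. Fewer genes were then called wherever the main test called any, so a lost call went with a loss over all genes. In the additive model the count rose to 2794 without WT replicate 1 and fell to 998 without WT replicate 2. Leaving out 1 library gave 101 to 5792 called genes for Ezh2-KO against WT in CD44+ NK1.1- cells (main 682), with 0 to 3 subunit genes. For genotype over the 3 subsets it gave 489 to 2794 (main 1561), with 1 to 2 subunit genes. Between CD44+ NK1.1- and CD44- NK1.1- cells it gave 69 to 4394 (main 367), with 0 to 2. For CD44+ NK1.1+ against CD44+ NK1.1- cells it gave 1416 to 8585 (main 4479), with 2 to 7, and against CD44- NK1.1- cells 2042 to 8661 (main 4438), with 1 to 8. Differences of the genotype effect gave 0 to 2634 for CD44+ NK1.1+ cells, with 0 to 1 subunit genes, and 1 to 3063 for CD44- NK1.1- cells (main 3), with 0.

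Ezh2 stayed lower in Ezh2-KO over the 3 subsets, with an edgeR, DESeq2 or limma-voom call under every alternative run. In CD44+ NK1.1- cells 0 subunit genes were called with library size alone or limma-voom. Scaling by library size alone called 6 subunit genes in CD44+ NK1.1+ against CD44+ NK1.1- cells. The share of higher calls there was 31.8% in place of 50.5%, against CD44- NK1.1- cells 33.2% in place of 49.7%, and for genotype over the subsets 68.1% in place of 56.8%. The mean of 3 genotype effects called 951 genes. In single genotypes, called genes numbered 1416 (WT) and 2565 (Ezh2-KO) for CD44+ NK1.1+ against CD44+ NK1.1- cells, 2052 and 2118 against CD44- NK1.1- cells (1 subunit gene in WT), and 68 in Ezh2-KO for CD44+ NK1.1- against CD44- NK1.1- cells. For the difference of genotype effects in CD44+ NK1.1+ cells, 1 gene was called without a filter and 28 with DESeq2. In CD44- NK1.1- cells the numbers were 24 and 28, with 1 under the filter at 1 CPM.

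Some differences changed sign, none of them past the threshold in the main test. Under library size alone Mtf2 (0.017) and Phf19 (0.0035) did so for genotype in CD44+ NK1.1- cells, Suz12 (0.0067) for genotype over the subsets and Eed (-0.0012) for CD44+ NK1.1+ against CD44- NK1.1- cells. The mean of 3 genotype effects gave -0.0024 for Rbbp4 and -0.0028 for Jarid2. In single genotypes Ezh1 (0.029, Ezh2-KO, CD44+ NK1.1- against CD44- NK1.1-), Mtf2 (0.0030, WT, CD44+ NK1.1+ against CD44+ NK1.1-), Aebp2 (0.017, WT) and Suz12 (0.0092, Ezh2-KO, both CD44+ NK1.1+ against CD44- NK1.1-) did so. Leaving out 1 library gave, for genotype in CD44+ NK1.1- cells, ranges of -0.16 to 0.0076 for Suz12, -0.079 to 0.17 for Rbbp4, -0.093 to 0.37 for Rbbp7, -0.011 to 0.051 for Jarid2, -0.14 to 0.0049 for Aebp2, -0.18 to 0.15 for Mtf2, -0.21 to 0.15 for Phf19 and -1.50 to 0.12 for Phf1. For genotype over the subsets these were -0.046 to 0.053 for Rbbp4, -0.57 to 0.16 for Phf1, -0.066 to 0.0082 for Suz12, -0.013 to 0.016 for Jarid2 and -0.12 to 0.027 for Phf19. For CD44+ NK1.1- against CD44- NK1.1- cells they were -0.10 to 0.063 for Eed, -0.16 to 0.075 for Rbbp7 and -0.060 to 0.019 for Ezh1. For CD44+ NK1.1+ cells they were -0.13 to 0.036 for Mtf2 against CD44+ NK1.1- cells, and -0.11 to 0.0099 for Suz12 and -0.051 to 0.019 for Aebp2 against CD44- NK1.1- cells. The difference of the genotype effect for Ezh2 in CD44+ NK1.1+ cells ran from -0.0099 to 0.25. The cause of these changes was not tested.

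The Ezh1 share differed between genotypes by 6.55 points without division by length and by 5.61 to 7.44 points with 1 library left out (exact p = 0.0833 to 0.167). Replicates were numbered in accession order, so no paired analysis was possible because the labels give no shared numbers.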
